A study of Mus musculus with 31 samples.

Results

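The 40 cell cycle genes described here are 19 genes of DNA replication (S phase) and 21 genes of mitosis, taken from the count files by their symbols. All 40 were found among the 24421 gene symbols of each count file, and all 40 passed the filter on low counts that left 13039 genes for testing. They were followed in 31 RNA-seq libraries of immune cells sorted from the heart of Balb/c mice, 8 to 12 weeks of age, the donors being either uninjured, called steady state (SS) below, or infarcted (MI, myocardial infarction) through a permanent ligature on the left anterior descending coronary artery. The sorted populations were conventional dendritic cells of type 1 (cDC1) and type 2 (cDC2), monocyte-derived cells positive for CD11c, labelled moDC, and monocyte-derived cells negative for CD11c, labelled macrophages. Each of the 8 groups (4 cell types in 2 states) had 4 libraries, except cDC2 after MI with 3. The time after ligation, the sex of the mice, the sorting antibodies and the number of hearts behind each library could not be read from the labels, so p-values measure the spread between libraries, and whatever differed between the handling of SS and of MI hearts cannot be told apart from infarction.

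A cell that commits to division switches on cyclin E with CDK2, driven by E2F transcription factors, loads the MCM helicase onto origins of replication with CDC6 and CDT1, and copies its DNA with a supply of nucleotides made by ribonucleotide reductase and thymidylate synthase. The mitotic genes follow in G2 and M phase: cyclin B with CDK1 starts mitosis, Aurora and Polo kinases and kinesins build the spindle, and the anaphase-promoting complex with CDC20 ends it. Tissue macrophages can renew by local division, conventional dendritic cells arise from dividing precursors that finish their expansion in tissues, and monocytes that enter injured tissue are mostly not dividing when they arrive. In bulk libraries such as these, fewer dividing cells and less of these RNAs per dividing cell cannot be told apart.

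The promoters of the 2 classes differ in how often they hold certain short words, and 4 promoters that hold them are printed as examples. RefSeq (GRCm38.p6) start sites were matched for 32 of the 40 genes, 16 in each class, and 250 bases before to 50 bases after each start were searched on both strands. The E2F words TTTCCCGC, TTTGGCGC, TTTCGCGC or TTTGCCGC were in 7 of the 16 replication promoters (43.8%), 1 of the 16 mitotic promoters (6.25%) and 2.26% of all 32851 promoters. The cell cycle homology region words TTTGAA or TTCGAA, of which TTCGAA reads the same on both strands, were in 3 replication promoters (18.8%), 12 mitotic promoters (75%) and 19.2% of all. CCAAT was in 10 (62.5%), 14 (87.5%) and 37.4%, and the GC box GGGCGG was in 13 of each class (81.2%) and 35.7%. A word is only a match of letters, and no binding was measured. Each line below gives the 150 bases before the start, 5′ to 3′ along the gene, with E2F, homology region and CCAAT matches of either strand in capitals. Mcm5 (chr8:75109359-75109508, plus strand) and Mcm6 (chr1:128359706-128359855, minus strand) encode helicase subunits, Top2a (chr11:99024190-99024339, minus strand) encodes topoisomerase II alpha, and Ube2c (chr2:164769779-164769928, plus strand) encodes the ubiquitin-conjugating enzyme of the anaphase-promoting complex.
Mcm5: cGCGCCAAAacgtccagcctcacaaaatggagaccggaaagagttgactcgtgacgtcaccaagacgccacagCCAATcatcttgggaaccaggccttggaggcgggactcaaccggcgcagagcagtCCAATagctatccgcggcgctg
Mcm6: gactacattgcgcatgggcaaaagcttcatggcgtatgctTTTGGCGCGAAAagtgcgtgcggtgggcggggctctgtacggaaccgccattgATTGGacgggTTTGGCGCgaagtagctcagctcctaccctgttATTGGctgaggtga
Top2a: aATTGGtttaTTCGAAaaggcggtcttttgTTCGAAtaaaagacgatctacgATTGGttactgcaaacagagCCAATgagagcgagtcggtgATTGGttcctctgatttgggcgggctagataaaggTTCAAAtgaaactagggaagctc
Ube2c: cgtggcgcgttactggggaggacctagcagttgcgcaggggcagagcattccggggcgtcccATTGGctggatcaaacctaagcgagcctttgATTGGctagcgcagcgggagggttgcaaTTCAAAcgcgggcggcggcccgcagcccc
In these windows Mcm5 has 1 E2F match and 2 CCAAT matches, and Mcm6 has 3 E2F matches, of which the first 2 overlap, and 2 CCAAT matches. Top2a has 3 homology region and 4 CCAAT matches, and Ube2c has 1 and 2. Neither mitotic window holds an E2F word, and neither replication window holds a homology region word. They were chosen for holding the words, from 8 windows. These 8 were of the 4 most abundant matched genes of each class whose promoters hold an E2F, homology region or CCAAT word. The mitotic genes Birc5 and Nusap1, more abundant than Ube2c, were matched but passed over for holding none of these words. Of the 8 windows, those of Pcna and Mcm7 hold no E2F word, and those of Ccnb2 and Ccnb1 no homology region word.

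The libraries held 9148624 to 16531349 reads in genes, and values are given as CPM, a gene's reads scaled to a common total of reads in genes (TMM). The sorted identities of cDC1 and macrophages were visible in a defining gene of each. The cDC1 receptor gene Xcr1 averaged 909.7 CPM in SS cDC1 and 995 in MI cDC1, and at most 3.53 in any other group. The macrophage complement gene C1qa averaged 5265 CPM in SS macrophages, 2739.7 in moDCs, 477 in cDC2 and 4.01 in cDC1, so that the cDC2 libraries were not free of it. Of the cDC2 genes, Cd209a stood at 1844 to 2474 CPM in SS cDC2 and 232 to 636 in SS moDCs. Sirpa went the other way, at 726 to 907 CPM in SS cDC2, 1147 to 1290 in SS macrophages and 1123 to 1209 in SS moDCs. The erythroid genes Hbb-bs and Hba-a1 had no read in any library. Reads in no feature made up 11.6% to 16.9% in the SS libraries numbered 1 and 4, against 6.42% to 9.26% in those numbered 2 and 3 and 6.85% to 10.9% after MI.

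Per kilobase of exon, the replication genes were the more abundant class. Their mean over the 31 libraries ran from 1.10 CPM per kb for Ccne2, one of the 2 cyclin E genes, to 45.8 for Pcna, the sliding clamp of DNA polymerase, with a median of 11.4. The mitotic genes ran from 0.235 CPM per kb for Cenpf, a kinetochore protein, to 24.4 for Ccnb2, a cyclin B gene, with a median of 6.29. The mitotic genes also varied more between libraries of a group. Their median within-group SD was 0.60 on the log2 scale, against 0.32 for the replication genes and 0.40 for all 13039 genes tested.

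In the steady state macrophages, moDCs and cDC1 overlapped in their mitotic transcripts, and cDC2 lay lowest on average. Summed over the 21 mitotic genes, the SS libraries (in the order of replicates 1 to 4, here and in all lists of values) held 448, 312, 715 and 574 CPM in macrophages, 804, 678, 542 and 451 in moDCs, 115, 169.8, 451 and 369 in cDC2 and 495, 452, 702 and 732 in cDC1. The sums of the 19 replication genes were 701, 706, 982 and 829 CPM in macrophages, 1068, 1278, 905 and 1034 in moDCs, 499, 657, 955 and 950.4 in cDC2 and 967, 1119, 1228 and 1161 in cDC1. The cDC2 libraries fell into a low pair, replicates 1 and 2, and a higher pair, replicates 3 and 4, whose sums lay within the range of the macrophages. As a ratio of the 2 sums, mitotic over replication transcripts came to 0.625 ± 0.128 in macrophages, 0.580 ± 0.134 in moDCs, 0.338 ± 0.113 in cDC2 and 0.530 ± 0.0967 in cDC1 (mean ± SD, n = 4). Gene by gene, cDC2 had the lowest SS mean for 32 of the 40 genes (12 replication, 20 mitotic), and the highest mean fell to moDCs for 18 and to cDC1 for 18.

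**Figure D1:**
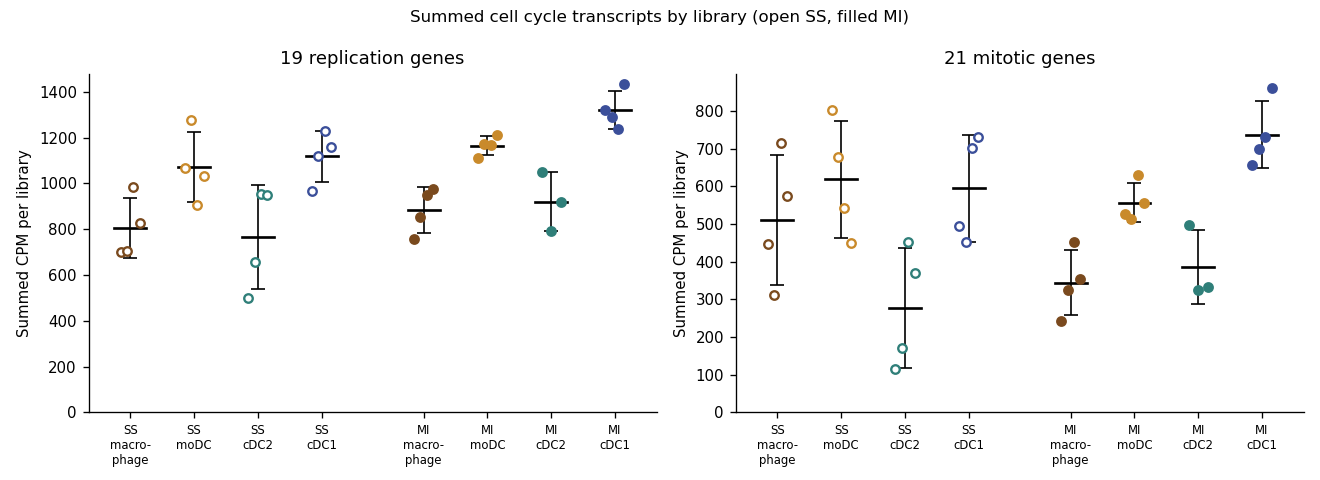
Summed CPM of the 19 replication genes (left) and the 21 mitotic genes (right) in each library, with the group mean and SD; open points are SS and filled points MI libraries. The SS cDC2 libraries split into a low and a higher pair, and the MI cDC1 libraries lie above all other MI libraries in both panels.

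Of the 4 most abundant replication genes, Mcm5, Mcm6 and Mcm7 showed the same split and Pcna did not. Mcm5, a subunit of the replicative helicase, stood in SS at 64.6, 65.3, 132 and 89.3 CPM in macrophages, 117, 202, 129 and 124 in moDCs, 72.1, 103, 156 and 139.6 in cDC2 and 131, 152, 174 and 140.3 in cDC1. The cDC1 and macrophage libraries met only at macrophage replicate 3, and moDC replicate 2 stood far above the other moDC libraries. Mcm6, a second subunit, stood at 74.9, 72.3, 85.5 and 93.7 CPM in macrophages, 115, 126, 70.8 and 100.5 in moDCs, 32.8, 47.4, 74.2 and 85.3 in cDC2 and 81.9, 105, 116 and 119 in cDC1. Mcm7, also a subunit, stood at 68.9, 58.1, 95.3 and 74.5 CPM in macrophages, 110.3, 121, 75.03 and 100.2 in moDCs, 53.3, 58.9, 88.2 and 90.8 in cDC2 and 89.9, 110.4, 106 and 116 in cDC1. For Mcm6 the cDC2 replicates 1 and 2 were lower than every other SS library, and for Mcm7 they were lower than all moDC and cDC1 libraries but overlapped the macrophages. Pcna stood at 78.5, 114, 116 and 95.4 CPM in macrophages, 119, 129.7, 121 and 118 in moDCs, 100.0, 109.9, 114 and 109 in cDC2 and 107, 133, 123 and 121 in cDC1, and all moDC libraries lay above all macrophage and all cDC2 libraries by small margins.

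The most abundant mitotic genes spread more widely. Top2a, which untangles sister chromatids, stood in SS at 46.3, 14.3, 95.0 and 66.2 CPM in macrophages, 85.9, 79.6, 49.5 and 54.1 in moDCs, 10.3, 15.6, 48.6 and 35.6 in cDC2 and 28.5, 45.5, 81.6 and 79.7 in cDC1. All moDC libraries lay above all cDC2 libraries, while the macrophages spanned nearly the whole range. Ccna2, the cyclin A gene of S and G2 phase, stood at 34.7, 39.8, 78.4 and 56.9 CPM in macrophages, 82.1, 72.7, 50.6 and 36.5 in moDCs, 7.26, 16.6, 50.2 and 43.9 in cDC2 and 90.9, 53.9, 65.8 and 60.9 in cDC1. Ccnb2, which activates CDK1, stood at 26.8, 25.8, 41.1 and 29.9 CPM in macrophages, 48.7, 35.3, 37.8 and 23.8 in moDCs, 13.9, 21.3, 43.1 and 32.7 in cDC2 and 57.7, 43.0, 62.0 and 53.8 in cDC1. For Ccna2 every cDC1 library lay above every cDC2 library, and for Ccnb2 cDC1 replicate 2 and cDC2 replicate 3 met. Aurkb, the kinase of the chromosomal passenger complex, stood at 23.3, 21.8, 43.3 and 33.9 CPM in macrophages, 43.8, 60.0, 40.3 and 30.5 in moDCs, 20.7, 17.1, 53.3 and 38.7 in cDC2 and 31.8, 26.2, 38.4 and 34.4 in cDC1, and its groups overlapped throughout.

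Against moDCs, SS cDC2 had 18 of the 40 genes lower and none higher. Beside this stands a background of 8.05% of all genes tested that were called lower in the same comparison and 7.35% called higher, a gene being called where edgeR's quasi-likelihood test gave an adjusted p under 0.05. The 6 replication genes were the helicase genes Mcm2, Mcm3 and Mcm6, the origin licensing factor Cdt1 (-1.25, adjusted p = 2.47e-04, edgeR, log2 difference first), the reductase subunit Rrm1 and the cyclin gene Ccne2. The 12 mitotic genes included the cyclin gene Ccnb1 (-1.65, adjusted p = 3.92e-04), its kinase Cdk1 (-1.37, adjusted p = 0.00431), the spindle kinesin Kif11 (-1.50, adjusted p = 0.00445), the checkpoint gene Bub1b (-1.80, adjusted p = 0.00385) and the mitotic transcription factor Foxm1 (-1.55, adjusted p = 0.00669). The median log2 difference was -1.25 over the mitotic genes, -0.48 over the replication genes and -0.04 over all genes. Leaving out SS cDC2 replicate 1 left 11 genes called.

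Against macrophages, SS cDC2 had 12 genes lower and 1 higher (background 16.2% lower, 19.1% higher). Lower were Mcm2, Cdt1 and 10 mitotic genes, among them Cdk1 (-1.36, adjusted p = 0.00158, edgeR), Cdc20, the activator of the anaphase-promoting complex (-1.17, adjusted p = 0.00388), and Cenpf (-2.83, adjusted p = 0.00101). The 10 of 21 mitotic genes make a larger share than the background, and the 2 of 19 replication genes do not. The single gene higher in cDC2 was Ccne1, the other cyclin E gene, by 5.43-fold (log2 difference 2.44 ± 0.43 SE, edgeR adjusted p = 3.03e-05). Leaving out SS cDC2 replicate 2 left 8 genes called.

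SS cDC1 exceeded SS cDC2 in 23 genes, 9 of replication and 14 of mitosis, and none was lower (background 11.7% higher, 16.4% lower). The largest were the cyclin gene Ccne2, 4.09-fold (log2 difference 2.03 ± 0.51 SE, edgeR adjusted p = 0.00258), Kif11, 3.61-fold, and the licensing factor Cdc6, 3.60-fold, with the last 2 at edgeR adjusted p = 1.90e-04 and 4.38e-04. Rrm2, the subunit of ribonucleotide reductase that limits nucleotide supply in S phase, stood at 9.52, 23.5, 48.1 and 31.1 CPM in cDC2 and 41.1, 86.0, 91.3 and 82.7 in cDC1. Only cDC1 replicate 1 fell within the range of the cDC2 libraries, and the difference was 2.68-fold (log2 difference 1.42 ± 0.32 SE, edgeR adjusted p = 8.38e-04). These 3 comparisons share the SS cDC2 libraries, and are therefore not independent.

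Most calls of a low SS cDC2 level were lost without replicates 1 and 2 together, while part of the difference remained. Leaving out both also leaves fewer SS cDC2 libraries for the test. For the lost calls, this cannot be told apart from the low levels of these replicates. Of the 18, 13 and 23 genes called, 10, 6 and 15 stayed called when any one library of the groups compared was left out. In an alternative chosen after seeing the data, with SS cDC2 limited to replicates 3 and 4, 2 of the 18 genes remained lower than in moDCs, Ccnb1 (-1.13, adjusted p = 0.0373, edgeR) and Cdt1 (-1.09, adjusted p = 0.0184). The median difference from moDCs was then -0.69 over the mitotic genes and -0.22 over the replication genes, and Bub1b (-1.17, adjusted p = 0.0705) and Kif11 (-0.88, adjusted p = 0.126) kept their sign without passing the test. Against macrophages 2 of 13 remained, Ccne1 (2.66, adjusted p = 8.81e-05) and Cenpf (-2.32, adjusted p = 0.0391), and Mcm4, Mcm5, Rrm2 and Uhrf1 became higher in cDC2. Of the 23 genes higher in cDC1, 4 remained: Rrm2 (0.92, adjusted p = 0.0286), Cdc6 (1.65, adjusted p = 0.0193), Kif11 (1.23, adjusted p = 0.0117) and Mcm2 (0.44, adjusted p = 0.0384). Replicates 1 and 2 also held more neutrophil transcripts, the 3 neutrophil genes found summing to 36.5, 27.8, 1.64 and 3.00 CPM, and more fibroblast transcripts, 20.5, 10.0, 4.71 and 6.93 CPM for 4 genes. Endothelial genes summed to 46.6, 67.3, 29.8 and 24.8 CPM, and the 5 cDC2 marker genes to 3669, 4744, 4933 and 5174 CPM, lowest in replicate 1. The part of these transcripts in the result was not tested.

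The remaining SS comparisons concerned replication genes nearly alone. SS moDCs exceeded macrophages in 2 genes, Mcm5 by 1.63-fold (log2 difference 0.71 ± 0.22 SE, edgeR adjusted p = 0.0306) and Ccne1 by 3.54-fold (log2 difference 1.82 ± 0.43 SE, edgeR adjusted p = 0.00307), and in no mitotic gene (DESeq2 called the same 2 genes; background 8.56% higher, 4.34% lower). No mitotic gene reached an unadjusted p under 0.05 there by edgeR, and the number of genes called ran from 1 to 5 as single libraries were left out, with 5 reached without macrophage replicate 3, 4 without moDC replicate 3 and 1 without any one of macrophage replicates 1, 2 and 4 or moDC replicate 2. With a replicate block, these libraries being paired by their correlations, 5 replication genes were called, the same 2 among them, and with only these 2 groups in the fit none was. SS cDC1 exceeded moDCs in Rrm2 (1.28, adjusted p = 0.00185, edgeR), Cdc6 (1.12, adjusted p = 0.0224) and Ccne1 (1.30, adjusted p = 0.0101) and were lower in Cdt1 (-1.05, adjusted p = 5.10e-04), 3 and 1 genes against a background of 14.4% and 18.9%. Without SS cDC1 replicate 1, 2 genes were called. SS cDC1 exceeded macrophages in 9 replication genes and 1 mitotic gene, Ccnb2, and were lower in Cdt1 (background 20.9% higher, 21.9% lower).

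Ccne1 and Rrm2 differed widely between the 4 SS cell types. Ccne1 stood at 0.858, 0.392, 3.27 and 1.65 CPM in macrophages, 4.78, 7.76, 6.59 and 2.75 in moDCs, 5.49, 8.73, 7.99 and 11.5 in cDC2 and 19.8, 12.5, 12.7 and 9.16 in cDC1. All cDC1 and all cDC2 libraries lay above all macrophage libraries, and moDC replicate 4 lay below macrophage replicate 3. The macrophage values rest on 9, 4, 34 and 17 reads. The cDC1 level was 8.73-fold that of macrophages (log2 difference 3.13 ± 0.44 SE, edgeR adjusted p = 3.94e-07). Rrm2 stood at 12.3, 12.9, 28.3 and 16.3 CPM in macrophages and 33.1, 29.0, 33.2 and 28.5 in moDCs, every one below every cDC1 library, and cDC1 exceeded macrophages 4.30-fold (edgeR adjusted p = 3.97e-06).

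**Figure D2:**
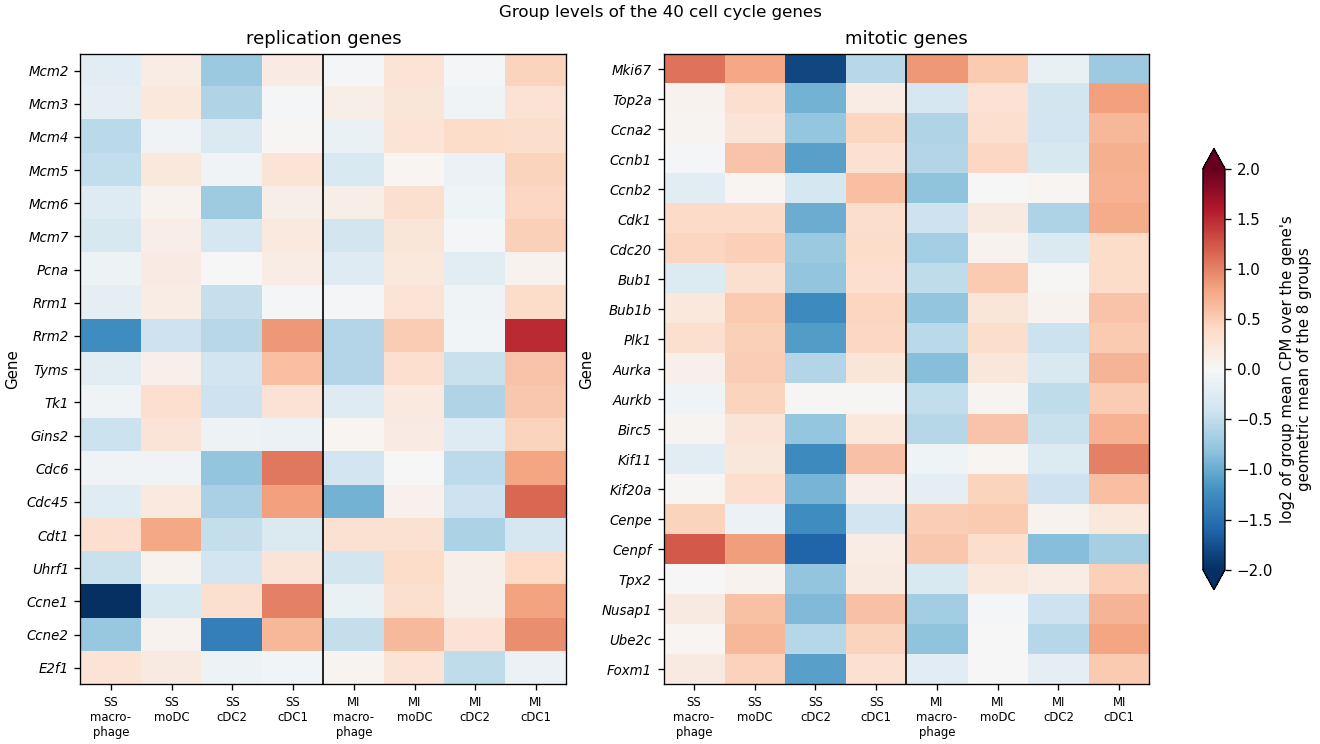
Group means of the 40 genes, each as the log2 of the group's mean CPM over that gene's geometric mean of the 8 groups (colour, from -2 in blue to 2 in red); columns are the groups, SS left and MI right of the line. SS cDC2 is blue for most mitotic genes, MI cDC1 is red for most genes, and Ccne1 is lowest in SS macrophages.

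After infarction cDC1 stood highest. They had the highest MI mean for 32 of the 40 genes (15 replication, 17 mitotic). Macrophages had the lowest for 23 (10 and 13), cDC2 for 16 and cDC1 for 1, Mki67. The summed mitotic genes came to 243, 326, 453 and 354 CPM in macrophages, 528, 515, 631 and 555 in moDCs, 499, 324 and 333 in cDC2 (3 libraries) and 657, 699.8, 731 and 863 in cDC1. The replication sums were 755, 854, 949 and 973, then 1111, 1170.0, 1165 and 1211, then 1051, 789.7 and 920.4, then 1318, 1289.6, 1239 and 1433 CPM in the same order. In both sums each cDC1 library lay above every other MI library, and each moDC library above every macrophage and cDC2 library. The comparisons between cell types within MI that follow share these libraries and are not independent.

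Of the replication genes, Mcm5 after MI stood at 77.1, 85.7, 100.2 and 139 CPM in macrophages, 119, 149, 114 and 129.6 in moDCs, 133, 96.9 and 113 in cDC2 and 164, 157, 174 and 179.5 in cDC1, with all cDC1 libraries above all others. Mcm7 stood at 62.4, 70.7, 78.9 and 74.4 CPM in macrophages, 98.2, 106, 109 and 125 in moDCs, 93.7, 77.8 and 100.4 in cDC2 and 137, 102, 121 and 152 in cDC1. The macrophage libraries were below all moDC and cDC1 libraries, and cDC2 replicate 2 fell among them. Pcna stood at 75.8, 100.0, 102 and 84.9 CPM in macrophages, 136, 125, 115 and 129 in moDCs, 95.2, 90.3 and 92.0 in cDC2 and 105, 121, 102 and 129.7 in cDC1, and here moDC libraries were as high as cDC1 libraries and above every macrophage and cDC2 library. Mcm6 stood at 98.2, 100.1, 122 and 106 CPM in macrophages, 121, 123, 119.9 and 127 in moDCs, 118, 74.8 and 85.4 in cDC2 and 155, 124, 114 and 128 in cDC1, with cDC1, moDC and macrophage libraries overlapping.

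Of the mitotic genes, Top2a after MI stood at 29.4, 38.4, 60.6 and 39.6 CPM in macrophages, 47.8, 55.2, 82.7 and 72.7 in moDCs, 59.9, 37.4 and 25.5 in cDC2 and 96.0, 84.5, 94.1 and 98.3 in cDC1, with all cDC1 libraries above all others. Ccnb2 stood at 11.4, 22.4, 21.8 and 25.7 CPM in macrophages, 36.2, 36.8, 26.5 and 42.8 in moDCs, 40.2, 28.9 and 40.5 in cDC2 and 43.9, 63.0, 51.2 and 72.2 in cDC1, again with cDC1 on top and with all macrophage libraries below all others. Ccna2 stood at 23.1, 28.2, 46.4 and 35.8 CPM in macrophages, 59.8, 67.5, 67.4 and 58.7 in moDCs, 56.3, 28.3 and 31.8 in cDC2 and 54.2, 90.9, 80.7 and 94.1 in cDC1. Aurkb stood at 12.6, 21.8, 26.1 and 30.7 CPM in macrophages, 29.2, 24.5, 43.1 and 36.8 in moDCs, 26.9, 22.3 and 18.3 in cDC2 and 39.6, 46.6, 44.2 and 52.5 in cDC1. For Ccna2 and Aurkb cDC1 overlapped moDCs, and for both every cDC1 library lay above every macrophage library.

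MI cDC1 exceeded MI macrophages in 26 genes, 12 of replication and 14 of mitosis, and were lower in 1, Cdt1 (background 21.0% higher, 24.5% lower). By role these were the helicase genes Mcm2, Mcm4, Mcm5 and Mcm7 with Cdc45, which joins the helicase at the fork (4.27-fold, log2 difference 2.09 ± 0.35 SE, edgeR adjusted p = 6.57e-06), and the nucleotide supply genes Rrm2 (4.21-fold), Tyms (2.22-fold) and Tk1 (1.73-fold). Of the mitotic genes, Ccnb2 had the smallest adjusted p (2.83-fold, log2 difference 1.50 ± 0.27 SE, edgeR adjusted p = 2.69e-05), with Ube2c at 3.01-fold, Aurka, the spindle pole kinase, at 2.92-fold, and Nusap1, which bundles spindle microtubules, at 2.62-fold. The median log2 difference was 1.09 over the mitotic genes and 0.75 over the replication genes, against -0.05 over all genes. Of these 27 genes, 17 stayed called when any one library of the groups compared was left out. Mitotic genes that did not pass included Mki67, Cenpe and Cenpf, all of which averaged lower in MI cDC1 than in MI macrophages.

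Against MI cDC2, MI cDC1 were higher in 13 genes and lower in none (background 10.6% higher, 16.2% lower). The 6 replication genes were Rrm2 (1.54, adjusted p = 9.85e-04, edgeR), Cdc45 (1.57, adjusted p = 0.00148), Tyms, the thymidylate synthase gene (1.02, adjusted p = 0.00279), the thymidine kinase gene Tk1, Cdc6 and Mcm7. The 7 mitotic genes included Cdk1 (1.36, adjusted p = 0.00451), Birc5, the survivin gene of the chromosomal passenger complex, Kif11 and Ube2c. The count fell to 6 without MI cDC2 replicate 2 and to 8 without replicate 3, and Rrm2, Cdc45, Tyms and Cdk1 stayed called in every alternative tried. Against MI moDCs, MI cDC1 were higher in Rrm2, Cdc45, Ccnb2 and Kif11 and lower in Cdt1 (background 15.0% higher, 21.0% lower), 4 higher and 1 lower, or 4 and 0 with upper-quartile scaling. That count fell to 2 without MI cDC1 replicate 4, and to 3 without MI cDC1 replicate 3 or any one of MI moDC replicates 1, 2 and 3, with Rrm2 (0.98, adjusted p = 0.0136) and Cdc45 (1.06, adjusted p = 0.0123) called throughout.

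MI moDCs exceeded MI macrophages in 9 genes (background 6.65% higher, 4.17% lower), namely Pcna, Tyms, Rrm2, Mcm7 and Cdc45 of replication and Birc5, Ccnb1, Ccnb2 and Aurka of mitosis. Pcna was 1.40-fold higher (log2 difference 0.48 ± 0.12 SE, edgeR adjusted p = 0.00609) and Tyms 1.88-fold (log2 difference 0.91 ± 0.24 SE, edgeR adjusted p = 0.00959), and these 2 stayed called in every alternative. The count fell to 2 without MI macrophage replicate 1, to 4 without macrophage replicate 2 or 4 or moDC replicate 4, and to 5 without moDC replicate 3. MI cDC2 were lower than MI moDCs in E2f1, the transcription factor (-0.78, adjusted p = 0.0103, edgeR), Cdt1 (-0.94, adjusted p = 0.0136), Pcna, Tyms and Birc5 (background 5.66% lower, 4.49% higher). None of these 5 stayed called in every alternative, and leaving out any one of the 7 libraries left 1 to 3 genes called. MI cDC2 against MI macrophages gave 2 higher, Mcm4 and Ccnb2, and 2 lower, Cdt1 and E2f1 (background 13.8% higher, 12.6% lower), or 1 higher and 2 lower with DESeq2 size factors or upper-quartile scaling. The count was 1 without MI cDC2 replicate 1 and 2 without MI cDC2 replicate 2 or MI macrophage replicate 1 or 4, with Cdt1 (-0.92, adjusted p = 0.00643) called throughout.

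In macrophages infarction went with more RNA of the cyclin E gene Ccne1 and less of Cdc20. The other cyclin E gene, Ccne2, was not called (0.26, edgeR adjusted p = 0.843). Ccne1 rose from 0.858, 0.392, 3.27 and 1.65 CPM in the SS libraries to 4.87, 6.83, 6.91 and 6.06 in the MI libraries, with every MI library above every SS library. The change was 3.97-fold (log2 difference 1.99 ± 0.43 SE, edgeR adjusted p = 0.00250), and 6.34-fold without SS macrophage replicate 3. Cdc20 fell from 21.8, 30.7, 52.8 and 31.7 CPM to 12.6, 13.7, 16.2 and 20.8, again without overlap, by 2.16-fold (log2 difference -1.11 ± 0.31 SE, edgeR adjusted p = 0.0254). These were the only members called, 1 of 19 replication genes higher and 1 of 21 mitotic genes lower, against a background of 4.01% higher and 3.37% lower. Ccne1 (chr7:38097984-38107534, minus strand) and Cdc20 (chr4:118432901-118437352, minus strand) are placed on GRCm38 by GENCODE M21.

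The remaining mitotic genes leaned down in macrophages without passing the test. The log2 change was negative for 19 of the 21, with a median of -0.60, against 0.17 over the replication genes and -0.03 over all genes, and 7 of them had an unadjusted edgeR p under 0.05. Top2a, for example, averaged lower after MI, but the MI values of 29.4, 38.4, 60.6 and 39.6 CPM lay within the SS range. The Cdc20 call was lost without SS macrophage replicate 3, which had the highest value of 17 mitotic genes, and also without MI macrophage replicate 1, 2 or 3, and where only the SS libraries numbered 1 and 4 were used. The 3 monocyte genes Ly6c2, Ccr2 and Plac8 summed to 343 to 504 CPM in SS and 1832 to 2381 in MI macrophages, while 7 macrophage genes summed to 14085 to 19679.8 and 12428 to 16020.3. The part of this shift in the cell cycle genes was not tested.

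In cDC2 infarction went with more RNA of 3 replication genes. Mcm2, a helicase subunit, stood at 28.2, 30.1, 61.2 and 64.5 CPM in SS and 80.9, 56.4 and 86.4 after MI, a 1.62-fold rise (log2 difference 0.70 ± 0.20 SE, edgeR adjusted p = 0.0164). Mcm4, another subunit, stood at 42.1, 60.3, 61.3 and 90.0 CPM and 120.3, 91.4 and 88.2, a 1.58-fold rise (log2 difference 0.66 ± 0.19 SE, edgeR adjusted p = 0.0192). For both genes the MI libraries overlapped SS replicate 4, and for Mcm2 also SS replicate 3. Ccne2 stood at 0.981, 0.745, 2.63 and 0.936 CPM and 4.05, 5.16 and 3.37, without overlap, a 3.16-fold rise (log2 difference 1.66 ± 0.54 SE, edgeR adjusted p = 0.0418). These 3 of 19 replication genes were called higher and none lower, against a background of 4.41% higher and 6.63% lower.

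No mitotic gene was called in cDC2 by edgeR, though 6 of the 21 had an unadjusted p under 0.05 and DESeq2 called 1, Bub1b. The log2 change was positive for 19 of the 21 mitotic genes, with a median of 0.57, against 0.27 over the replication genes and -0.03 over all genes. With SS cDC2 limited to replicates 3 and 4, an alternative chosen after seeing the data, these medians were -0.05 and -0.14, so that the direction of both rested on replicates 1 and 2. Each of the 3 calls was lost without SS cDC2 replicate 1 and also without replicate 2, that of Ccne2 also without SS replicate 4 or any one MI library. The number of calls was 1 without SS cDC2 replicate 1, 0 without replicate 2 or without MI cDC2 replicate 1, 6 without SS replicate 4 and 9 without SS replicate 3. In the limited setting none of the 3 remained (Mcm2 0.24, adjusted p = 0.497; Mcm4 0.39, adjusted p = 0.338; Ccne2 1.23, adjusted p = 0.354, edgeR), and Aurkb alone was called, lower after MI (-1.04, adjusted p = 0.0439). The 4 shared dendritic cell genes summed to 797 to 1093 CPM in SS and 1415 to 1471 in MI cDC2, the macrophage genes to 1745 to 2866 and 942 to 1470.1, and the neutrophil genes to at most 0.578 after MI, and their part in the result was not tested.

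**Figure D3:**
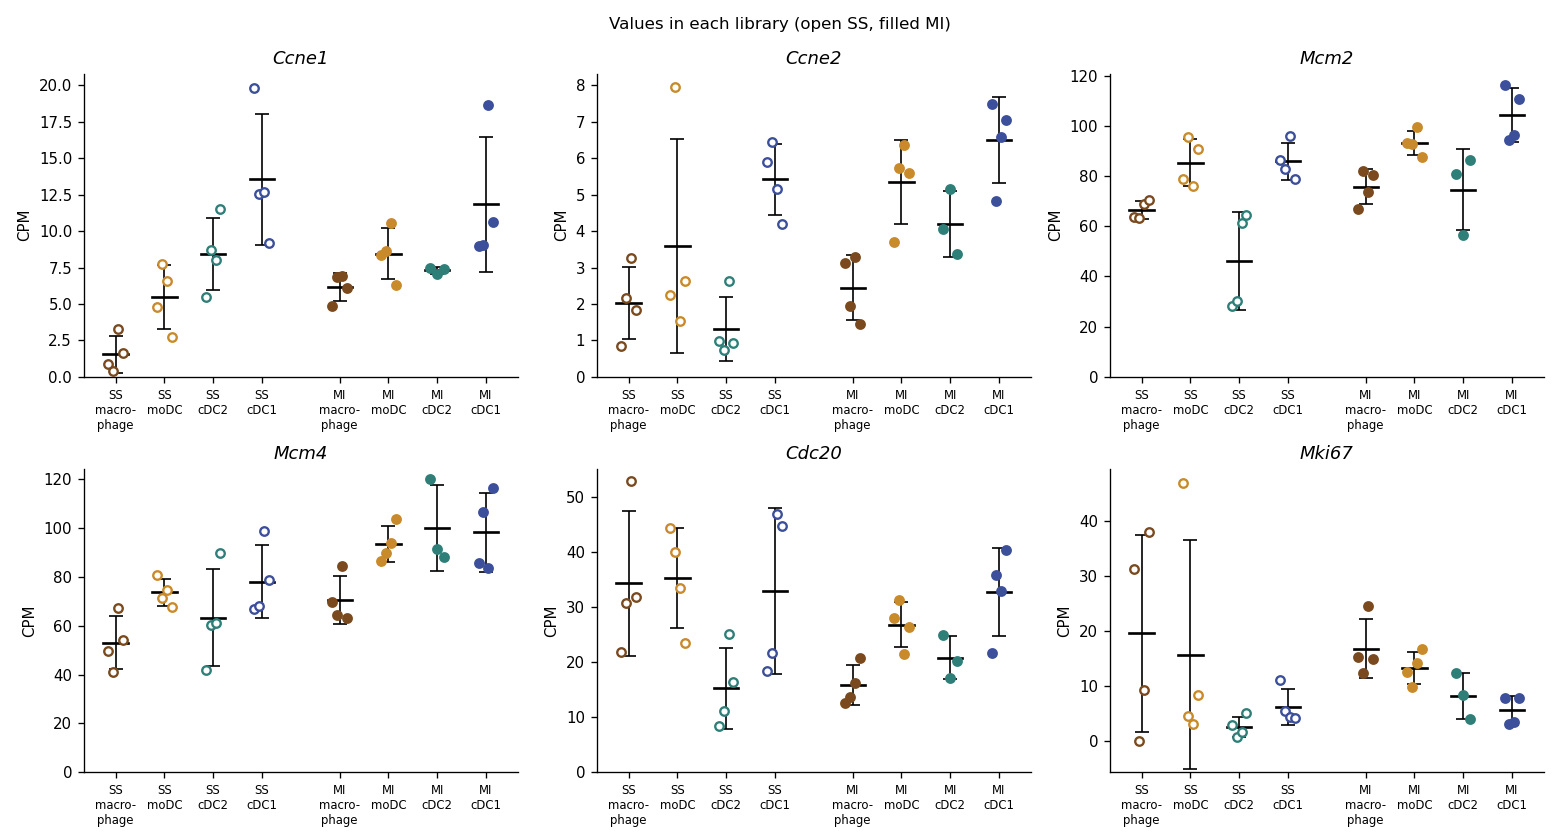
CPM of the 5 members called after MI in a single cell type and of Mki67 in every library (open SS, filled MI), with the group mean and SD. Ccne1 in macrophages and Ccne2 in cDC2 lie higher after MI without overlap, Cdc20 in macrophages lies lower, and Mki67 spreads widely in SS macrophages and moDCs.

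In moDCs and cDC1 no member passed the test. In moDCs edgeR called 0 of 40 (background 1.52% higher, 3.32% lower), 1 had an unadjusted p under 0.05, and DESeq2 called 1, Rrm2. Rrm2 stood at 33.1, 29.0, 33.2 and 28.5 CPM in SS and 52.2, 51.9, 63.7 and 67.7 in MI moDCs, without overlap, at 1.90-fold (log2 difference 0.93 ± 0.31 SE, edgeR adjusted p = 0.0873). In cDC1 edgeR called 0 of 40 (background 2.16% higher, 6.72% lower), 2 had an unadjusted p under 0.05, and DESeq2 called 0. Rrm2 in cDC1 stood at 41.1, 86.0, 91.3 and 82.7 CPM in SS and 98.3, 134, 109.5 and 123 after MI, likewise without overlap (log2 difference 0.63 ± 0.31 SE, edgeR adjusted p = 0.243). Over the mitotic genes the median change was -0.18 in moDCs and 0.29 in cDC1 on the log2 scale, and 18 of 21 were positive in cDC1.

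**Figure D4:**
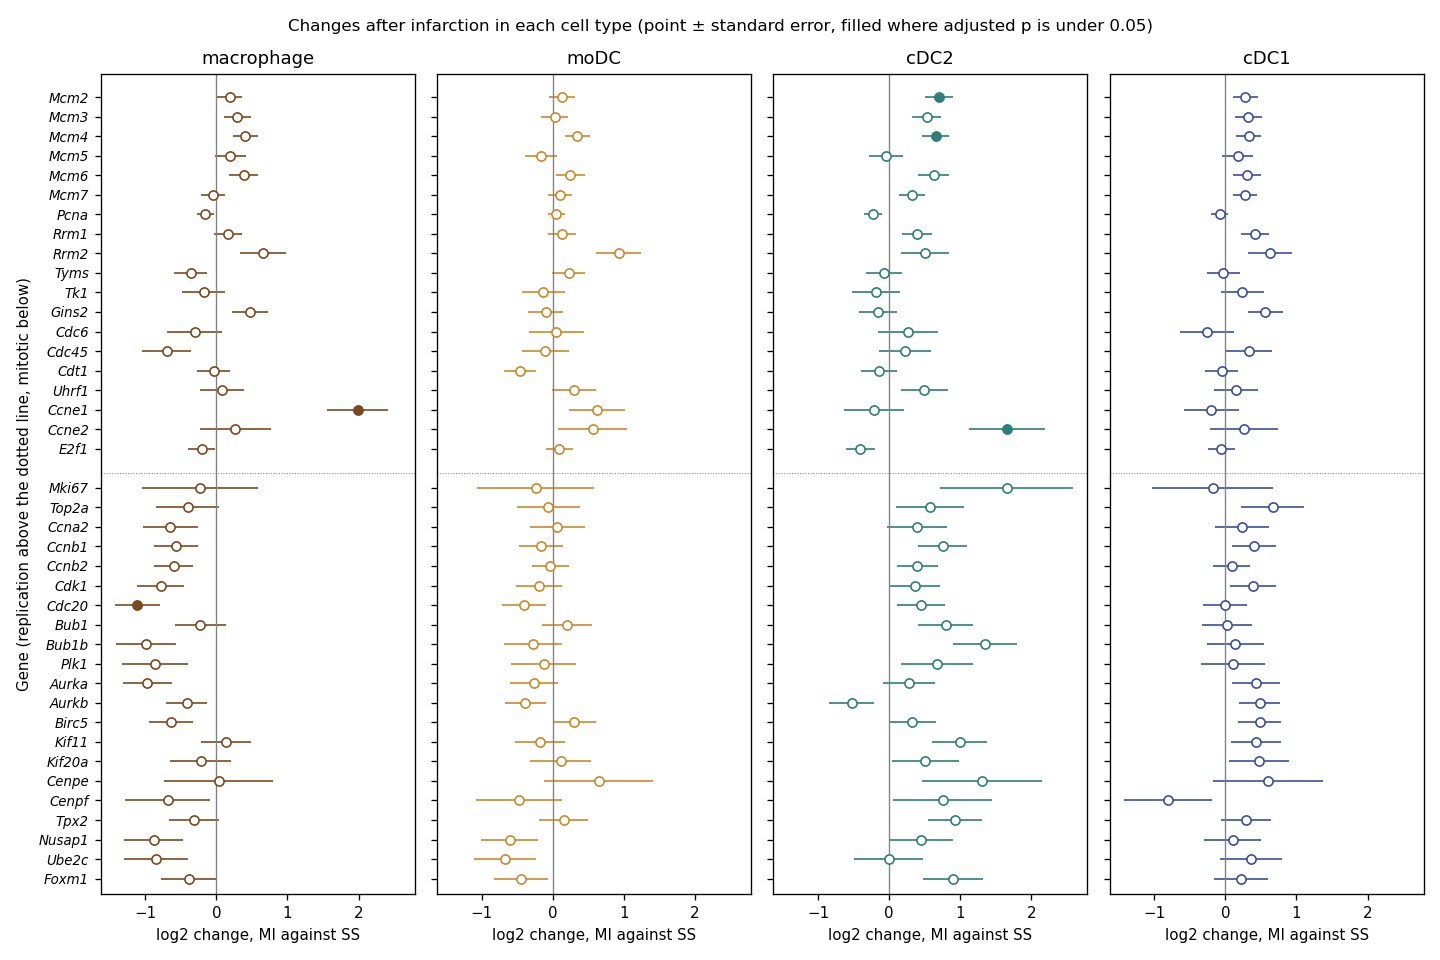
Log2 change of each of the 40 genes, MI against SS, in the 4 cell types, with its standard error; replication genes stand above and mitotic genes below the dotted line, and filled points are called by edgeR. Most mitotic points lie left of 0 in macrophages and right of 0 in cDC2 and cDC1, and filled points are 2 in macrophages and 3 in cDC2.

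Averaged over the 4 cell types, infarction went with more RNA of 8 replication genes and no call among the 21 mitotic members. Higher were 8 of the 19 replication genes: the helicase genes Mcm2, Mcm3, Mcm4 and Mcm6, both reductase genes Rrm1 and Rrm2, and both cyclin E genes. The background was 10.0% higher and 15.4% lower. The rises were small, from 1.21-fold for Rrm1 to 1.61-fold for Ccne2. None of the 21 mitotic genes was called by edgeR, none had an unadjusted p under 0.05 and DESeq2 called none, with a median log2 change of 0.06, against 0.20 over the replication genes and -0.03 over all genes.

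The 5 genes with the smallest adjusted p were 4 helicase genes and Rrm2. Mcm4 stood in the SS libraries at 49.8, 41.1, 67.2 and 54.3 CPM in macrophages, 80.7, 71.6, 74.7 and 67.7 in moDCs, 42.1, 60.3, 61.3 and 90.0 in cDC2 and 67.0, 68.0, 98.8 and 78.8 in cDC1, and after MI at 69.9, 64.4, 84.7 and 63.1 CPM in macrophages, 86.7, 90.0, 94.1 and 104 in moDCs, 120.3, 91.4 and 88.2 in cDC2 and 85.8, 107, 83.9 and 117 in cDC1 (log2 difference 0.44 ± 0.09 SE, edgeR adjusted p = 4.05e-04). Mcm2 stood in SS at 63.5, 63.4, 69.0 and 70.3 CPM in macrophages, 78.9, 95.6, 75.8 and 90.9 in moDCs, 28.2, 30.1, 61.2 and 64.5 in cDC2 and 86.3, 82.6, 95.9 and 78.7 in cDC1, and after MI at 66.7, 82.1, 73.6 and 80.4 CPM in macrophages, 93.1, 92.8, 99.5 and 87.7 in moDCs, 80.9, 56.4 and 86.4 in cDC2 and 116, 94.2, 96.4 and 111 in cDC1 (log2 difference 0.32 ± 0.09 SE, edgeR adjusted p = 0.00874). In every cell type the mean of both genes was higher after MI, while SS and MI libraries overlapped except for Mcm4 in moDCs. Rrm2 after MI stood at 27.1, 19.4, 40.6 and 23.2 CPM in macrophages, 52.2, 51.9, 63.7 and 67.7 in moDCs, 45.0, 38.8 and 35.8 in cDC2 and 98.3, 134, 109.5 and 123 in cDC1 (log2 difference 0.68 ± 0.16 SE, edgeR adjusted p = 0.00190), above the SS range in every moDC and cDC1 library. Mcm6, with values given above, had a log2 change of 0.39 ± 0.10 SE (edgeR adjusted p = 0.00437). Mcm3 stood in SS at 62.0, 54.6, 79.5 and 62.1 CPM in macrophages, 84.4, 94.9, 71.3 and 88.4 in moDCs, 31.8, 39.6, 63.5 and 58.0 in cDC2 and 63.8, 64.5, 75.4 and 81.3 in cDC1, and after MI at 58.5, 72.2, 86.4 and 99.6 CPM in macrophages, 89.8, 87.1, 83.7 and 84.5 in moDCs, 97.5, 51.3 and 60.0 in cDC2 and 104, 71.7, 89.4 and 91.3 in cDC1 (log2 difference 0.29 ± 0.10 SE, edgeR adjusted p = 0.0259), with overlap in every cell type.

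Mcm2, Mcm4, Mcm6 and Rrm2 stayed called in all 39 alternatives tried for this average, including SS cDC2 limited to replicates 3 and 4, and the other 4 genes did not. In that limited setting Ube2c was called lower (-0.48, adjusted p = 0.0396, edgeR). The count was 5 without SS macrophage replicate 1 or 2 or SS cDC2 replicate 1 or 2. Transcripts of other cells also moved with infarction. The 4 T cell genes summed to 1.62 to 14.2 CPM in the SS libraries and at most 0.835 after MI, with 3 of the 4 at 0 in all MI moDC and MI cDC2 libraries. The 3 neutrophil genes summed to 0.541 to 187 CPM in SS and at most 4.80 after MI, the 3 natural killer cell genes to 3.14 to 40.4 and at most 18.2, and the 4 mural genes to 0.477 to 97.5 and at most 8.36. The natural killer cell genes did not move together. Ncr1 and Gzma reached at most 0.619 and 0.583 CPM after MI, while Klrb1c was higher after MI in cDC2, at 4.32 to 5.75 CPM in SS and 12.6 to 18.2 in MI. Their part in the averaged result was not tested.

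A difference in the effect of infarction between cell types was called for few members, and no such call held in every alternative. Against the macrophage effect, the cDC2 effect was lower for Ccne1 (log2 difference -2.20 ± 0.60 SE, edgeR adjusted p = 0.0279) and higher for Bub1b, a spindle checkpoint gene (log2 difference 2.34 ± 0.61 SE, edgeR adjusted p = 0.0223), and Cdc20 (log2 difference 1.56 ± 0.46 SE, edgeR adjusted p = 0.0453), 3 of 40 genes against a background of 4.49%. Bub1b stood at 21.5, 14.1, 31.7 and 25.5 CPM in SS and 7.81, 8.05, 16.8 and 14.0 in MI macrophages, and at 1.47, 6.28, 16.4 and 9.17 in SS and 29.1, 19.8 and 14.5 in MI cDC2. It was thus lower after MI in the mean of the macrophages and higher in that of cDC2, with overlapping ranges in both, and neither change alone passed the test. The cDC1 effect was lower than the macrophage effect for Ccne1 (log2 difference -2.19 ± 0.57 SE, edgeR adjusted p = 0.0217), 1 of 40 against 4.04%. Both comparisons use the same macrophage libraries.

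No member differed in its MI effect between moDCs and macrophages (background 0.291%), cDC2 and moDCs (0.905%), cDC1 and cDC2 (4.21%) or cDC1 and moDCs (1.79%) by edgeR or by DESeq2, with 2, 4, 1 and 1 genes at an unadjusted p under 0.05. An F test over all 4 cell types called Ccne1 alone (edgeR adjusted p = 0.0350, background 6.80%). None of these calls held in every alternative. The cDC2 against macrophage count ran from 0 without MI cDC2 replicate 1 to 6 without SS cDC2 replicate 3, with Ccne1 lost without SS macrophage replicate 1, SS cDC2 replicate 4, MI macrophage replicate 2 or 3 or any one MI cDC2 library, and Bub1b lost without SS macrophage replicate 3, SS cDC2 replicate 2 or MI cDC2 replicate 1. Cdc20 was lost without SS macrophage replicate 3 or 4, SS cDC2 replicate 1, 2 or 4, MI macrophage replicate 1, 2 or 3 or any one MI cDC2 library, and with SS cDC2 limited to replicates 3 and 4, which also ended the Bub1b call. Ccne1 in cDC1 against macrophages was lost without SS macrophage replicate 1 or MI cDC1 replicate 2, and the count was 2 without MI macrophage replicate 3. The F test called none without SS macrophage replicate 1, 2 or 4, SS cDC2 replicate 4, MI macrophage replicate 2, 3 or 4, MI cDC1 replicate 1, 2 or 4 or any one MI cDC2 library, and 5 genes without SS cDC2 replicate 3.

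Mki67, whose protein coats mitotic chromosomes and is a common marker of dividing cells, varied widely between SS libraries of 1 group. It stood in SS at 31.3, 0, 9.34 and 38.0 CPM in macrophages, 46.9, 4.55, 3.14 and 8.36 in moDCs, 2.94, 0.745, 1.64 and 5.05 in cDC2 and 11.1, 5.40, 4.37 and 4.19 in cDC1, and after MI at 15.2, 12.3, 24.5 and 15.0 CPM in macrophages, 12.5, 9.80, 14.2 and 16.7 in moDCs, 12.4, 8.33 and 4.05 in cDC2 and 7.92, 3.15, 3.53 and 7.78 in cDC1. The highest values of all were in SS macrophages 1 and 4 and SS moDC 1, while SS macrophage 2 had no read, which allows up to 0.294 CPM (3 reads, counting error only). In macrophages, moDCs and cDC2 the SS libraries numbered 1 and 4 were above those numbered 2 and 3, and in cDC1 only number 1 was. The MI effect averaged over cell types was 0.25 ± 0.43 SE (log2, edgeR adjusted p = 0.739), and 1.65 (adjusted p = 0.00563) where only the SS libraries numbered 2 and 3 were used. Cenpe, a kinesin of the kinetochore, showed a like pattern in SS macrophages, at 8.39, 0.196, 2.21 and 6.60 CPM, and was called with Mki67 in that setting, at 1.52 (adjusted p = 0.0222). The share of reads in no feature differs between these library numbers, as given above, and its part in these values was not tested.

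Further genes of the pathway were followed in 4 other lists, 18 of 19 G1 regulators, 16 of 18 inhibitors of cyclin-dependent kinases and other antiproliferative genes, 31 further replication genes and 43 further mitotic genes being tested. In macrophages after MI, 5 of the 43 further mitotic genes were lower and none higher, among them the centromere histone gene Cenpa (-0.69, adjusted p = 0.0206, edgeR) and the cytokinesis genes Racgap1 (-0.75, adjusted p = 0.0291) and Kif23 (-1.16, adjusted p = 0.0352), with a median of -0.42 over the list and a background of 3.37% lower and 4.01% higher. None of the 31 further replication genes was called there by edgeR, and 3 had an unadjusted p under 0.05. In cDC2 the separase gene Espl1 rose (0.95, adjusted p = 0.0110), and Cks2, a CDK subunit, fell (-1.28, adjusted p = 4.26e-04, edgeR). In cDC1 the replication factor gene Rfc5 rose (0.69, adjusted p = 0.0115), and in moDCs neither list held a call by edgeR, with 2 and 3 genes at an unadjusted p under 0.05. Averaged over the cell types, the further replication genes that rose included Pole and Fen1, and 1 fell, Rpa2. Of the 43 further mitotic genes, 2 rose in the average, Espl1 (0.36, adjusted p = 0.0249, edgeR) and the chromokinesin gene Kif4 (0.86, adjusted p = 0.0483), and 2 fell, Cks2 (-0.53, adjusted p = 6.05e-04) and Racgap1 (-0.43, adjusted p = 0.00390).

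Among the G1 regulators and inhibitors most calls after MI were falls. Ccnd2, a cyclin D gene that answers growth signals, averaged 209.9 CPM in SS and 71.6 in MI macrophages (-1.55, adjusted p = 9.03e-05, edgeR) and fell in moDCs (-0.96, adjusted p = 0.0145) and cDC1 (-1.41, adjusted p = 2.52e-04) as well. In cDC1 Ccnd1 (-0.93, adjusted p = 0.00271) and Myc (-0.91, adjusted p = 9.77e-04) also fell, whereas in cDC2 Ccnd1 rose (0.70, adjusted p = 0.0350). Among the 16 inhibitors no gene rose in any cell type, and 2 fell in macrophages, 2 in moDCs, 2 in cDC2 and 3 in cDC1, against backgrounds of 3.37%, 3.32%, 6.63% and 6.72%. Cdkn2c (-1.07, adjusted p = 0.0122) and Cdkn1c fell in macrophages, Gadd45b and Gadd45g in moDCs, Btg1 and Tob1 in cDC2, and Gadd45b (-1.78, adjusted p = 2.86e-04), Gadd45g and Cdkn1a, the p21 gene (-1.04, adjusted p = 0.00109), in cDC1. Averaged over the cell types 8 of the 16 inhibitors fell, against the background of 15.4%.

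Between cell types the further lists gave these counts, with the background in brackets. SS cDC2 were lower than moDCs in 6 of 31 further replication and 15 of 43 further mitotic genes and higher in none (8.05% lower, 7.35% higher). SS cDC1 exceeded SS cDC2 in 11 and 19, with 0 and 2 lower (11.7% higher, 16.4% lower). MI cDC1 exceeded MI macrophages in 7 and 22 genes, with 0 and 2 lower (21.0% higher, 24.5% lower). There the 7 of 31 further replication genes make a share close to the background. MI cDC1 exceeded MI cDC2 in 9 and 13, with 0 and 1 lower (10.6% higher, 16.2% lower). Against SS macrophages, SS cDC2 had calls in both directions in both lists (16.2% lower, 19.1% higher). The SS cDC2 counts rest on the same 4 libraries as those of the members.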

How the data were processed

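RNA-seq was measured in 31 libraries from 4 ng of total RNA each (SMART-Seq v4, 75 nt single reads), per the labels' protocols. FastQC 0.11.4, Trimmomatic 0.35, TopHat2 2.1.0, SAMtools 0.1.18 and the build mm10 are named in the submitters' processing notes. Neither the counting tool nor its annotation nor a strand setting is given in the sources used here, so reads of a gene and of an antisense or overlapping partner may not be told apart. The deposited values are raw counts per gene symbol, made by the authors. The 5 entries in no gene were left out; reads in no feature were 6.42% to 16.9% and ambiguous reads 0.857% to 1.21% of a library.

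One edgeR 4.0.16 model of all 8 groups was fitted (TMM scaling, filterByExpr with a minimum count of 10, robust quasi-likelihood F test, R 4.3.3), with Benjamini-Hochberg adjustment over 13039 genes and calls at an adjusted p under 0.05. Every adjusted p in the text is from it unless DESeq2 1.42.0 is named. Standard errors are the log2 change divided by the root of F, an approximation. CPM are counts scaled to the TMM-adjusted library totals, and CPM per kb uses exon lengths of GENCODE M21. Tested on simulated data for macrophages (12229 genes), the fit recovered 33.7% of genes changed by 1 on the log2 scale and 91.7% of those changed by 2.

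The members and lists were chosen with earlier results of these data known. Of 216 listed symbols, 215 were found. Values in every library are given for the 4 replication and 4 mitotic members with the highest mean CPM, for Mki67, for up to 5 called members with the smallest adjusted p per MI comparison, and for a few genes that a comparison turns on, chosen after their values were seen. Further-list genes are named only where called, at most 4 per list and comparison. No 2 libraries agreed within sampling noise. Intervals and floors cover counting error only. Samples were grouped by their labels. Same-numbered libraries deviated together, with every correlation over 0.1, in 2 of the 16 pairs of groups checked, SS macrophages with moDCs (0.119 to 0.203) and with cDC2 (0.109 to 0.160), so the numbers were taken to pair those libraries, a pairing that comes from the data and not from the labels; the fit without a block stayed the one reported. Alternatives were DESeq2's test and size factors, upper-quartile scaling, no filter, only the groups compared, a replicate block, subsets of SS libraries by number, and each library left out.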

Additional observations from a re-analysis of the deposited data

Results flagged for a closer look

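Dixon's test of the highest or lowest library was run on 112 groups of 4 libraries of the members given in full and found 3 values that stood apart, where chance gives about 1 in 20 groups. Mcm5 in SS moDC replicate 2 stood at 202 CPM, above 117 to 129 in the other 3. Mki67 in SS moDC replicate 1 stood at 46.9 CPM, above 3.14 to 8.36. Ccne2 in SS cDC2 replicate 3 stood at 2.63 CPM, above 0.745 to 0.981. SS moDC replicate 2 also held 97.5 CPM of the 4 mural genes and 178 CPM of the 5 endothelial genes, and their part in its Mcm5 value was not tested.

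The effect of infarction was called different between 2 cell types, by a test of the difference itself in edgeR, for 3 members. In cDC2 against macrophages the difference of the log2 changes was -2.20 for Ccne1, 2.34 for Bub1b and 1.56 for Cdc20, and in cDC1 against macrophages it was -2.19 for Ccne1. All 4 differences use the same macrophage libraries. They were 3 and 1 of the 40 members, against 4.49% and 4.04% of all genes, and none held in every alternative.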

How the results depend on the processing

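No gene called in MI against SS or in a difference of MI effects reversed its direction in any alternative tried. For comparisons between cell types a reversed direction was counted as a lost call and not followed apart. With SS cDC2 limited to replicates 3 and 4 the median MI changes in cDC2, which were not tested, turned from positive to negative in both classes, as did the mitotic median of the MI average. Counts below are of the 40 members called.

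Leaving out single libraries gave, for MI against SS, 1 to 2 calls in macrophages (2 with all libraries), 0 in moDCs and in cDC1 (0 and 0), 0 to 9 in cDC2 (3) and 5 to 8 in the average (8). In SS it gave 1 to 5 for moDCs against macrophages (2), 11 to 24 for cDC2 against moDCs (18), 8 to 19 for cDC2 against macrophages (13), 16 to 27 for cDC1 against cDC2 (23), 2 to 6 for cDC1 against moDCs (4) and 8 to 14 for cDC1 against macrophages (11). In MI the ranges in the same order were 2 to 7 (9), 1 to 3 (5), 1 to 4 (4), 6 to 15 (13), 2 to 5 (5) and 19 to 25 (27). For differences of MI effects the range was 0 to 6 in cDC2 against macrophages (3), 0 to 2 in cDC1 against macrophages (1), 0 to 5 in the F test (1), and 0 throughout for the other 4 differences (0 each).

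With only the groups compared in the fit, which leaves fewer libraries to estimate the spread, the count was 1 for MI against SS in moDCs and 0 in cDC2. In SS it was 0 for moDCs against macrophages, 6 for cDC2 against moDCs, 6 for cDC2 against macrophages and 13 for cDC1 against cDC2, in MI 18 for moDCs against macrophages, 10 for cDC2 against moDCs, 26 for cDC1 against cDC2 and 14 for cDC1 against moDCs, and 0 for the difference between cDC2 and macrophages. The DESeq2 test gave 1 for MI in moDCs, 5 for MI in cDC2 and 2 for the F test. No filter gave 3 for MI cDC2 against moDCs, and upper-quartile scaling 4 for the MI average. The cause of these shifts was not tested.

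Only SS libraries 1 and 4 gave 1 for MI in macrophages. Only SS libraries 2 and 3 gave 0 for the differences of cDC2 and of cDC1 against macrophages and 0 for the F test. SS cDC2 limited to replicates 3 and 4, chosen after seeing the data, gave 1 for MI in cDC2, 5 for the MI average, 2, 6 and 4 for SS cDC2 against moDCs, against macrophages and for cDC1 against cDC2, and 1 for each of the differences cDC2 against macrophages and cDC1 against cDC2.

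Of the 45 correlations between same-numbered libraries of a state, 15 were over 0.1 (-0.0578 to 0.203), against 3 of 135 between differently numbered ones, and 22 of 31 libraries correlated best with their own number, a hint from the data that numbers within a state are related. For the comparisons in which not every pair was over 0.1, the fit with a replicate block gave 1 call for MI in moDCs, 7 in cDC2 and 3 for the F test. For MI against SS the block tied SS to MI libraries of the same number. Of the 15 such correlations within a cell type 0 were over 0.1 (-0.0472 to 0.0655), so those block counts rest on a pairing that the data do not show. For SS moDCs against macrophages, where every pair was over 0.1, the replicate block gave 5, and it changed no other count by over 1.5 times. Depth limits Ccne2 and Cenpe most, the members with the lowest mean CPM of their classes.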
